A study of Homo sapiens with 9 samples.

Results

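Expression of 44 DNA repair genes was followed in spinal cord organoids (SCOs), 3-dimensional cultures that model the developing neural tube. The genes were taken by name from a list of the kinases of the DNA damage checkpoint and of the genes for double-strand break repair, the Fanconi anaemia pathway, mismatch repair and excision repair. All 44 were found in the 3 deposited tables, of 26871 genes that these tables share. SCOs were grown from clones of the WTC human induced pluripotent stem cell line that carry a SOX10 reporter, with the genotype label WT. Each clone descends from a single cell of 1 parental line, the libraries pooled several SCOs, and the labels do not tie a library to a clone, although their codes are shared across conditions. A figure legend of the study describes 1 of 3 clones per column for this sequencing. The study also reports indels on the other SOX10 allele in some of its clones. The 9 libraries fell into 3 groups of 3, vehicle (FGF), VPA and VPA + Rapamycin, all with an exposure of 96 h in the labels. The study's text gives a shorter exposure, while legends of its supplementary figures describe VPA exposures of the labels' length. Which of them holds for these libraries is not stated there, so the time is uncertain. VPA (valproic acid) inhibits histone deacetylases and Rapamycin inhibits mTOR. Nothing in the labels says that libraries of a group were separate experiments, so p-values measure the spread between these libraries. If the libraries of a group are the clones of that legend, the conditions are matched by clone, and the main test does not use such a match.

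DNA repair genes protect dividing cells. MRE11, RAD50 and NBN sense a double-strand break and call in the kinase ATM, while ATR and its target CHEK1 respond to stalled replication forks. A break is then rejoined directly by non-homologous end joining or copied from the sister chromatid by homologous recombination. The Fanconi anaemia pathway unhooks crosslinked strands, and mismatch and excision repair replace wrong or damaged bases. Neural progenitors divide fast, and many repair genes are transcribed most strongly around S phase by the E2F factors that also drive replication genes.

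With VPA, 12 of the 44 genes rose and 2 fell against vehicle, where 16.4% of all 17360 genes tested rose and 15.7% fell (14 genes in either direction, against 32.1%). Adding Rapamycin to VPA lowered 6 of the 44, against 3.73% of 17317 genes (6.74% in either direction). CHEK2, RBBP8 and RAD54L rose with VPA and fell when Rapamycin was added, in comparisons that share the VPA libraries. RAD52, a recombination mediator, had the largest change of the 44 genes and fell by 60.5% with VPA. A call here is an adjusted p of at most 0.05 in edgeR's quasi-likelihood test with Benjamini-Hochberg adjustment over all genes, and levels are counts scaled by TMM factors to a common library size of 16516247 reads unless FPKM (read counts corrected for gene length and depth) is named. In a bulk sample, fewer cells of a type and less RNA per cell cannot be told apart.

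**Figure D1:**
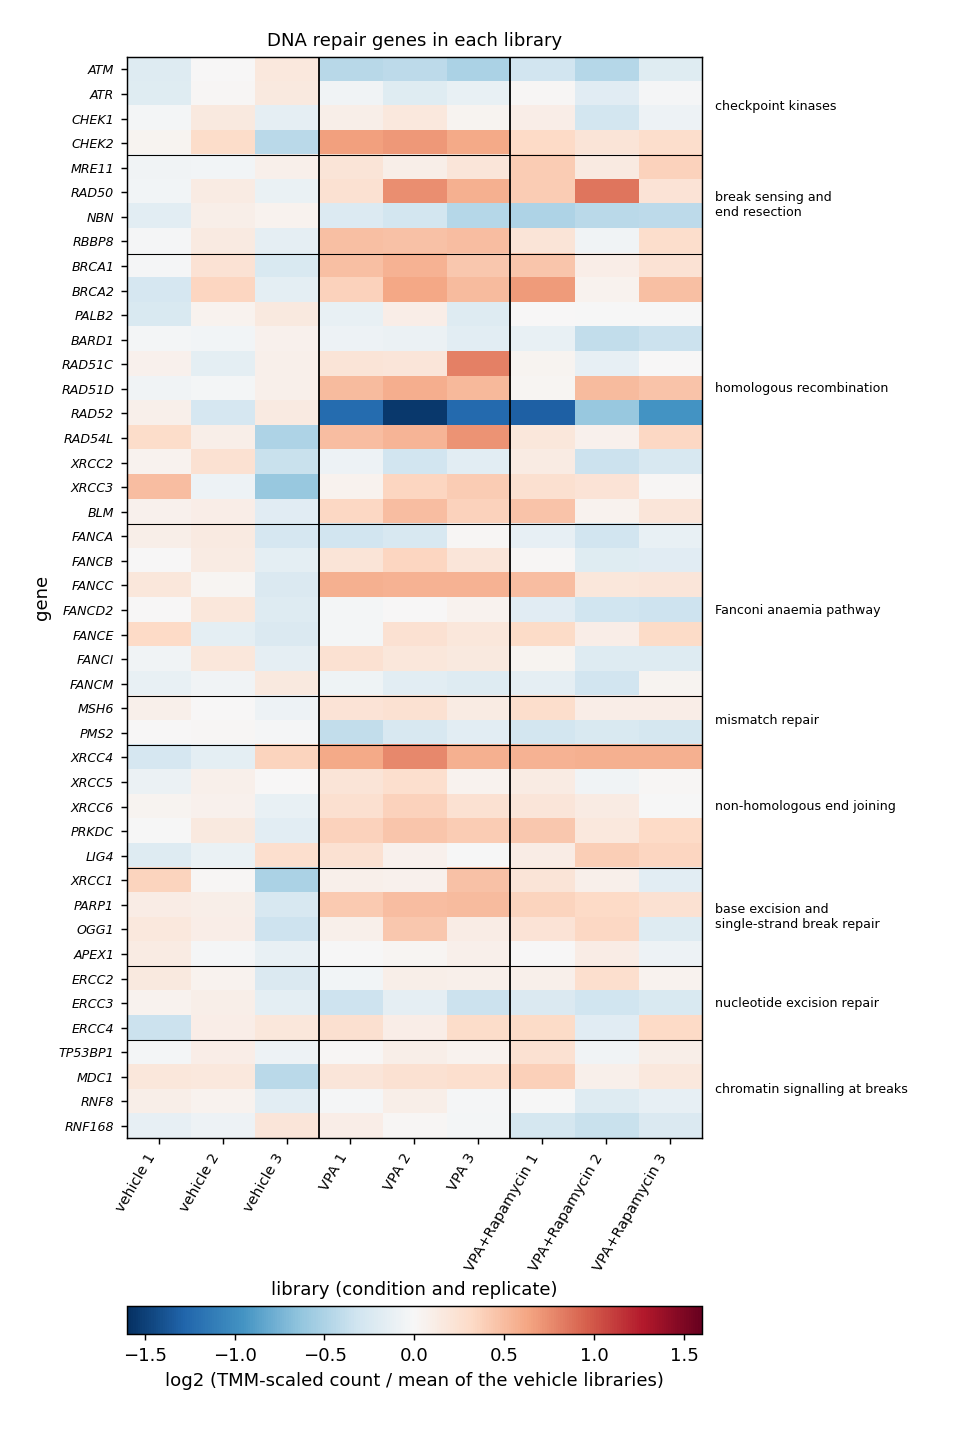
Level of each of the 44 genes (rows, grouped by role) in each of the 9 libraries (columns), as log2 of the TMM-scaled count over the mean of the 3 vehicle libraries, from blue (lower) to red (higher). RAD52 and ATM are blue in all 3 VPA libraries, while CHEK2, RBBP8, BRCA1, RAD54L, FANCC, XRCC4 and PARP1 are red there.

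Libraries held 15290294 to 17189216 counted reads in vehicle, 16217858 to 17417338 in VPA and 15609633 to 16795878 in VPA + Rapamycin, and 3 reads correspond to 0.172 to 0.196 CPM (counts scaled to library size). The 44 genes took 0.348% to 0.405% of the reads in vehicle, 0.435% to 0.452% in VPA and 0.402% to 0.433% in VPA + Rapamycin, so that the VPA libraries did not overlap those of the other conditions. Vehicle replicate 3 stood apart. It had the lowest summed level of the 44 genes (59385, against 63978 and 67315 in the other two vehicle libraries), the lowest sum of 38 DNA replication genes (37653, against 47991 and 49145) and the highest sum of 11 neuron markers (53841, against 30011 and 39930). It also held 313.9 scaled counts of TFAP2B and 590.9 of LUM, where the other vehicle libraries had at most 2.18 and 80.1. The 8 neural progenitor markers were above 0 in every library and summed to 65239 to 75467, and the calls among them are given with the other markers below. Of 14 calls between VPA and vehicle, all 14 remained without vehicle replicate 3. The median log2 fold change of the 44 genes with VPA was then 0.0997, against 0.179 with all libraries.

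A shared feature that the choice of genes did not use is the promoter. RefSeq promoters of 300 bases (250 before the transcription start and 50 from it on, build GRCh38.p14) were matched for 40 of the 44 genes, all but XRCC5, FANCI, NBN and PRKDC, and searched on both strands for exact motifs. An E2F motif, TTCCCGC or TTGGCGC, was in 17 of the 40 (42.5%), in 9.23% of all 35114 promoters and in 11.5% of the 22197 of protein-coding genes. The CCAAT motif of NF-Y was in 21 of 40 (52.5%) and in 34.6% of all promoters. The CHR motif of mitotic genes, TTTGAA or TTCGAA, was in 4 of 40 (10%) and in 16.4% of all. Matches of different motifs can overlap, as those of E2F and NF-Y did in OGG1. Among the genes that rose with VPA, 6 of the 11 with a promoter held an E2F match, and in 5 of them a match lay before the start. These 5 windows of 30 bases, from genes that rose with VPA, are shown on the strand of the gene, with the motif (read on either strand) in capitals.
RAD54L, chr1:46247628-46247657, plus strand: gcgcagcactaTTCCCGCctcttccttggg
BLM, chr15:90717261-90717290, plus strand: agcctgaggggGCGGGAAcagatgtccgag
RAD51D, chr17:35119800-35119829, minus strand: gggctctgggcGCGGGAAtcccggcggatc
FANCC, chr9:95317736-95317765, minus strand: tcgtcggaattTTCCCGCgacgccgcggga
PARP1, chr1:226408094-226408123, minus strand: gttccgtgggcgTTCCCGCggccaggcatc
The first base of the motif lay 49 bases before the start in RAD54L, 74 in BLM, 60 in RAD51D, 45 in FANCC and 18 in PARP1. CHEK2, BRCA1, BRCA2, RBBP8 and XRCC4 rose with no E2F match in the window, and RAD52, which fell, held one. Only the first listed promoter of each gene was searched, so a match at another start would be missed. A match describes the letters and is not a measured binding site.

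Mean FPKM over the 9 libraries spanned 0.463 to 133.6 with a median of 7.39. XRCC6 and XRCC5, the Ku subunits that cap a broken end, had 133.6 and 95.6 FPKM, followed by the abasic endonuclease APEX1 (87.1), the poly(ADP-ribose) polymerase PARP1 (54.9) and the catalytic subunit of DNA-dependent protein kinase, PRKDC (39.1). The ranges of XRCC6 (113.7 to 156.3) and XRCC5 (85.5 to 109.3) over the libraries did not overlap, whereas those of XRCC5 and APEX1 (80.8 to 94.0) did. At the low end were OGG1 (1.88), RAD51C (1.57), RAD51D (1.22) and RAD50 (0.463). RAD50 shares 79.7% of its exon bases with AC116366.3 on the same strand and XRCC3 shares 76.7% with KLC1 on the opposite strand, so that a part of their reads may have gone to the other gene or been left out. KLC1 fell with VPA (log2 fold change -0.56 ± 0.11 (SE), adjusted p = 0.00267). Of the 44 genes, 27 shared at least 1 exon base with another gene, and 14 shared bases with a gene whose reads came to over 10% of theirs. The library kit did not mark the strand.

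Of the checkpoint kinases, CHEK2 rose with VPA and ATM fell. CHEK2, which carries the signal of ATM to p53 and the cell cycle, had 453, 542 and 327 scaled counts with vehicle, 697, 714 and 671 with VPA and 549, 508 and 534 with VPA + Rapamycin. Every VPA library lay above every other library, and VPA + Rapamycin overlapped vehicle. CHEK2 was 56.4% higher with VPA than with vehicle (log2 fold change 0.65 ± 0.16 (SE), adjusted p = 0.0122) and fell by 23.4% when Rapamycin was added (log2 fold change -0.38 ± 0.092 (SE), adjusted p = 0.0167). HSCB overlaps 6.70% of its exon bases on the other strand, at 22.5% of its count. ATM, the kinase that signals double-strand breaks, had 2351, 2715 and 3054 scaled counts with vehicle, 1986, 2023 and 1912 with VPA and 2181, 1970.4 and 2375 with VPA + Rapamycin. All 3 vehicle libraries were above all VPA libraries, and VPA + Rapamycin overlapped VPA. The level fell by 27.6% with VPA (log2 fold change -0.47 ± 0.11 (SE), adjusted p = 0.00986), and VPA + Rapamycin against vehicle gave log2 fold change -0.32 ± 0.13 (SE), adjusted p = 0.0938. ATR, the kinase of stalled forks, had 774, 899.5 and 982 scaled counts with vehicle, 848, 774 and 813 with VPA and 896, 783 and 872 with VPA + Rapamycin. CHEK1, the target of ATR, had 923, 1054 and 856 scaled counts with vehicle, 1011, 1066 and 970.3 with VPA and 1021, 772 and 890 with VPA + Rapamycin. The groups of both overlapped in all comparisons and neither passed the test in any.

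Among the sensing and resection genes, RBBP8 rose with VPA and NBN was lower in VPA + Rapamycin than in vehicle. RBBP8 (CtIP), which starts the trimming of the broken end, had 633, 706 and 579 scaled counts with vehicle, 895, 881 and 898 with VPA and 737, 616 and 775 with VPA + Rapamycin. VPA libraries lay above both other groups without overlap, and were 38.5% above vehicle (log2 fold change 0.47 ± 0.12 (SE), adjusted p = 0.0104). It fell by 20.3% when Rapamycin was added (log2 fold change -0.33 ± 0.095 (SE), adjusted p = 0.0445). NBN, the subunit that recruits ATM, had 1152, 1382 and 1341 scaled counts with vehicle, 1115, 1058 and 945 with VPA and 917, 958 and 964 with VPA + Rapamycin. Its libraries under either treatment were all below vehicle, with log2 fold change -0.32 ± 0.12 (SE), adjusted p = 0.0546 for VPA and log2 fold change -0.46 ± 0.11 (SE), adjusted p = 0.0184 for VPA + Rapamycin against vehicle. MRE11, the nuclease of the same complex, had means of 711 ± 38 with vehicle, 797 ± 35.4 with VPA and 884 ± 85.4 with VPA + Rapamycin (SD, n = 3) and its estimate against vehicle was above 0 with VPA (log2 fold change 0.15 ± 0.11 (SE), adjusted p = 0.32) and with VPA + Rapamycin (log2 fold change 0.31 ± 0.12 (SE), adjusted p = 0.0992). RAD50, the third subunit, had 56.7, 64.2 and 54.2 scaled counts with vehicle, 69.1, 97.8 and 86.3 with VPA and 77.6, 106 and 67.7 with VPA + Rapamycin, and its VPA and VPA + Rapamycin libraries all lay above vehicle with log2 fold change 0.52 ± 0.25 (SE), adjusted p = 0.13 for VPA.

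Of the 11 homologous recombination genes, 5 rose with VPA and 1 fell, where 16.4% and 15.7% of all genes tested did. BRCA1, which favours resection and loads PALB2 and BRCA2, had 919.6, 1093 and 788 scaled counts with vehicle, 1300.3, 1369 and 1255 with VPA and 1268, 1009 and 1095 with VPA + Rapamycin. VPA libraries stood clear of vehicle (39.1% higher, log2 fold change 0.48 ± 0.13 (SE), adjusted p = 0.0159), while VPA + Rapamycin overlapped both. AC060780.1 overlaps BRCA1 on the same strand and moved the other way, log2 fold change -0.64 ± 0.13 (SE), adjusted p = 0.00314 with VPA. BRCA2, a mediator of homologous recombination, had 451, 687 and 484 scaled counts with vehicle, 699, 828 and 767 with VPA and 864, 559.7 and 757 with VPA + Rapamycin. Its VPA libraries lay above vehicle by a narrow margin and rose by 40.6% (log2 fold change 0.49 ± 0.16 (SE), adjusted p = 0.0374). RAD51D, which acts in homologous recombination, had 179, 182 and 195 scaled counts with vehicle, 262, 277 and 267 with VPA and 189.6, 263 and 254 with VPA + Rapamycin. VPA was 43.9% above vehicle without overlap (log2 fold change 0.53 ± 0.15 (SE), adjusted p = 0.0195), and 1 VPA + Rapamycin library lay at the vehicle level. RAD51C, which acts in the same process, had means of 143 ± 12.8 with vehicle, 193 ± 49.5 with VPA and 141 ± 8.69 with VPA + Rapamycin (SD, n = 3) with no call (log2 fold change 0.43 ± 0.21 (SE), adjusted p = 0.142 for VPA, log2 fold change -0.46 ± 0.18 (SE), adjusted p = 0.148 for added Rapamycin).

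RAD54L, a DNA-dependent motor protein of recombination, had 513, 445 and 295 scaled counts with vehicle, 588, 609 and 689.7 with VPA and 473, 439 and 526 with VPA + Rapamycin. It rose by 49.6% with VPA (log2 fold change 0.58 ± 0.18 (SE), adjusted p = 0.0294) and fell by 23.7% when Rapamycin was added (log2 fold change -0.39 ± 0.10 (SE), adjusted p = 0.0306), with VPA above both other groups. LRRC41 overlaps 25.1% of the exon bases of RAD54L on the other strand, at 352% of its count, and fell with VPA (log2 fold change -0.41 ± 0.11 (SE), adjusted p = 0.0142). BLM, a helicase that dissolves recombination intermediates, had 652, 669 and 548 scaled counts with vehicle, 780.4, 877 and 804 with VPA and 853, 650.1 and 712 with VPA + Rapamycin. VPA libraries were above vehicle (30.8%, log2 fold change 0.39 ± 0.12 (SE), adjusted p = 0.0307) and VPA + Rapamycin spanned both. RAD52, which anneals single strands, had 848, 668 and 887 scaled counts with vehicle, 340.4, 275 and 339.7 with VPA and 325, 527 and 414 with VPA + Rapamycin. All 6 treated libraries were below vehicle, and VPA + Rapamycin overlapped VPA. It fell by 60.5% with VPA (log2 fold change -1.34 ± 0.15 (SE), adjusted p = 0.000124) and was decreased by 47.6% in VPA + Rapamycin against vehicle (log2 fold change -0.93 ± 0.18 (SE), adjusted p = 0.00652). Between the treatments its estimate was above 0 (log2 fold change 0.41 ± 0.15 (SE), adjusted p = 0.11). The overlapping AC004803.1, at 19.9% of the count of RAD52, had log2 fold change -0.55 ± 0.24 (SE), adjusted p = 0.1 with VPA. PALB2, BARD1, XRCC2 and XRCC3, the remaining genes of this role, passed no test with all libraries, with log2 fold changes between -0.19 and 0.27 for VPA. XRCC3 was higher with VPA without vehicle replicate 1 (adjusted p = 0.0243 in edgeR).

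**Figure D2:**
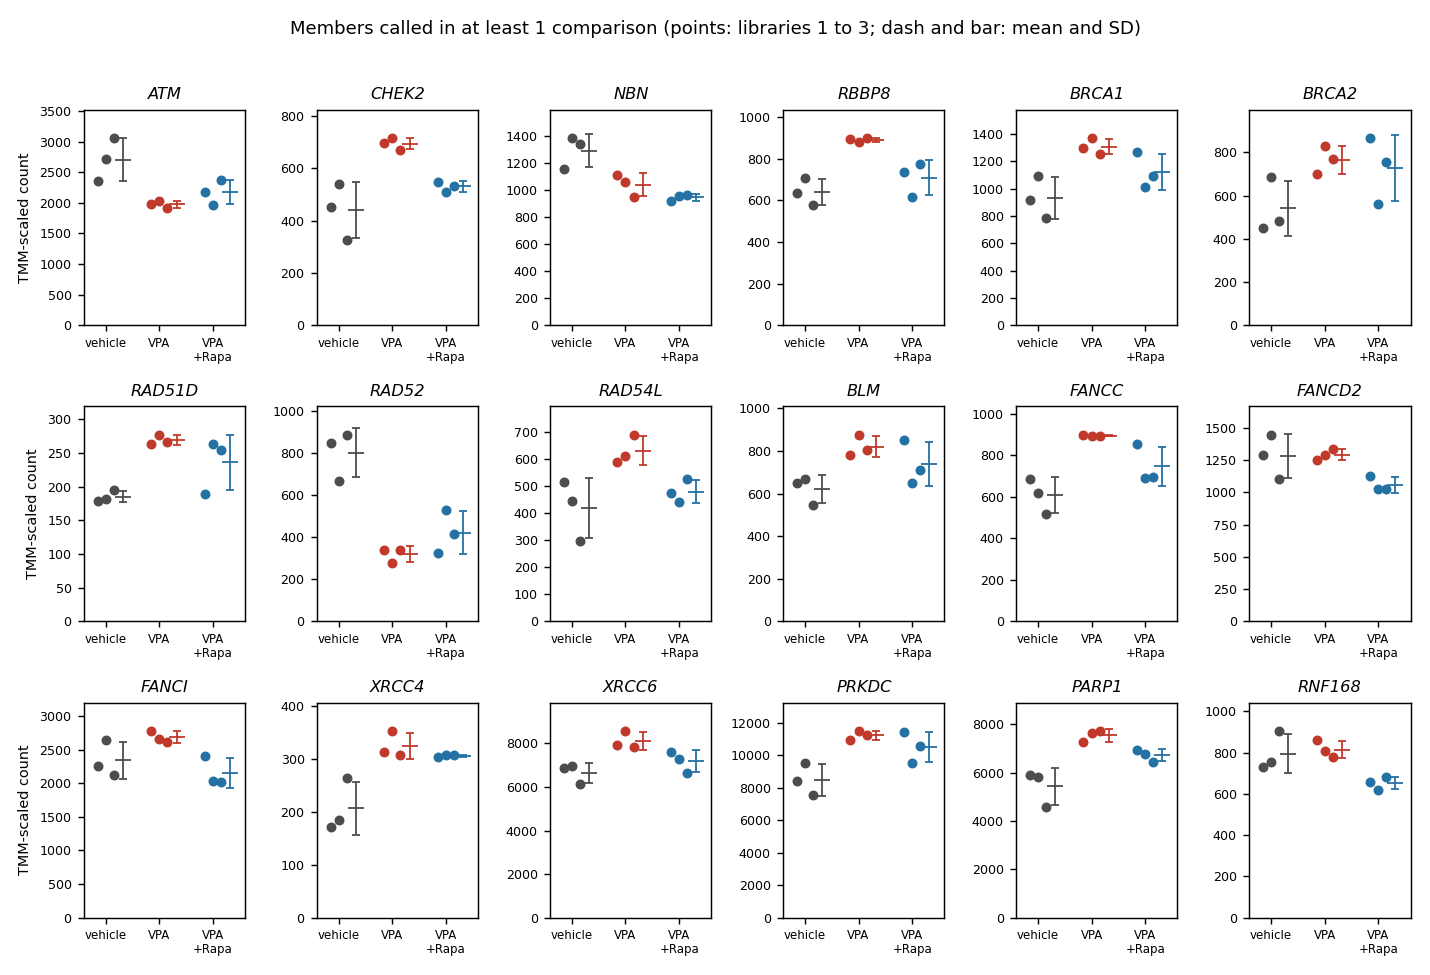
TMM-scaled counts (vertical axis, from 0) of the 18 genes called in at least 1 comparison, with 1 point per library, 3 per condition, and the mean and SD of each condition beside them. In RAD52 all 6 treated libraries lie below vehicle, and in CHEK2, RBBP8 and RAD54L the 3 VPA libraries lie above all others.

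In the Fanconi anaemia pathway, FANCC rose with VPA, and the pair FANCD2 and FANCI fell when Rapamycin was added. FANCC, a subunit of the core complex that ubiquitinates this pair, had 688, 619 and 517 scaled counts with vehicle, 899.8, 892 and 893 with VPA and 855, 689 and 694 with VPA + Rapamycin. VPA libraries differed among themselves by little (SD 4.29) and lay 46.1% above vehicle without overlap (log2 fold change 0.55 ± 0.13 (SE), adjusted p = 0.00737). VPA + Rapamycin lay below all VPA libraries without passing the test (log2 fold change -0.26 ± 0.095 (SE), adjusted p = 0.112). FANCD2 had 1289, 1447 and 1106 scaled counts with vehicle, 1248, 1288 and 1335 with VPA and 1127, 1023 and 1022 with VPA + Rapamycin. VPA and vehicle overlapped (log2 fold change 0.0013 ± 0.12 (SE), adjusted p = 0.995), and the level fell by 17.9% with Rapamycin added, without overlap (log2 fold change -0.28 ± 0.078 (SE), adjusted p = 0.0343). FANCI, which forms the clamp with FANCD2, had 2256, 2648 and 2118 scaled counts with vehicle, 2782, 2659 and 2608 with VPA and 2409, 2029 and 2025 with VPA + Rapamycin. It too fell by 19.5% with Rapamycin added (log2 fold change -0.31 ± 0.08 (SE), adjusted p = 0.0233), and not called with VPA (log2 fold change 0.19 ± 0.11 (SE), adjusted p = 0.208). POLG, which overlaps 5.90% of the exon bases of FANCI, had log2 fold change -0.004 ± 0.087 (SE), adjusted p = 0.987. FANCB, the lowest of the 7 per length, had 113, 124 and 101 scaled counts with vehicle, 130.2, 143 and 129 with VPA and 114, 99.1 and 99.9 with VPA + Rapamycin, and its VPA libraries were the highest without a call (log2 fold change 0.24 ± 0.19 (SE), adjusted p = 0.376). FANCA, FANCE and FANCM passed no test.

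Of the 5 end joining genes, 3 rose with VPA (16.4% of all genes tested did), and all 5 had estimates above 0 (49.7% of all genes). XRCC4, the scaffold of the ligase, had 172, 185 and 264 scaled counts with vehicle, 314, 354 and 308 with VPA and 305, 308 and 307 with VPA + Rapamycin. All treated libraries lay above vehicle, with log2 fold change 0.64 ± 0.18 (SE), adjusted p = 0.0213 for VPA and log2 fold change 0.56 ± 0.18 (SE), adjusted p = 0.056 for VPA + Rapamycin, and the latter passed with DESeq2 (adjusted p = 0.045). XRCC6 (Ku70) had 6855, 6984 and 6129.8 scaled counts with vehicle, 7928, 8584 and 7849 with VPA and 7628, 7278 and 6650.3 with VPA + Rapamycin. VPA was 21.1% above vehicle (log2 fold change 0.28 ± 0.094 (SE), adjusted p = 0.0433) and the ranges of VPA and VPA + Rapamycin did not overlap (log2 fold change -0.17 ± 0.074 (SE), adjusted p = 0.177). PRKDC had 8405, 9486 and 7538 scaled counts with vehicle, 10909.8, 11496 and 11226 with VPA and 11408, 9530 and 10538 with VPA + Rapamycin. It rose by 31.3% with VPA (log2 fold change 0.39 ± 0.10 (SE), adjusted p = 0.0128), and its VPA + Rapamycin libraries were above vehicle too (log2 fold change 0.30 ± 0.12 (SE), adjusted p = 0.0928). XRCC5 (Ku80) had means of 8274 ± 486 with vehicle, 9392 ± 692 with VPA and 8439 ± 554 with VPA + Rapamycin (SD, n = 3). LIG4, the ligase, had means of 704 ± 128 with vehicle, 757 ± 67 with VPA and 860.5 ± 82.2 with VPA + Rapamycin (SD, n = 3). Neither passed the test with all libraries. LIG4 was higher in VPA + Rapamycin than in vehicle without vehicle replicate 3 (adjusted p = 0.0196 in edgeR).

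In base excision and single-strand break repair, PARP1 was the only one of 4 genes called. PARP1 had 5925, 5810.4 and 4568 scaled counts with vehicle, 7253, 7644 and 7740 with VPA and 6950, 6773 and 6448 with VPA + Rapamycin. All VPA libraries were above all others, VPA + Rapamycin was above vehicle as well, and the steps were log2 fold change 0.46 ± 0.11 (SE), adjusted p = 0.00886 for VPA, log2 fold change -0.16 ± 0.069 (SE), adjusted p = 0.174 for added Rapamycin and log2 fold change 0.30 ± 0.12 (SE), adjusted p = 0.0952 against vehicle. APEX1 had 2951, 2665 and 2499 scaled counts with vehicle, 2703, 2776 and 2860.3 with VPA and 2709, 2924 and 2552 with VPA + Rapamycin, and its groups overlapped in every comparison. The interval of its VPA change ran from -0.19 to 0.25 on the log2 scale. OGG1, the glycosylase of oxidised guanine, had 283, 271 and 200.4 scaled counts with vehicle, 266, 338 and 274 with VPA and 294, 316 and 219 with VPA + Rapamycin. TADA3 and CAMK1 overlap OGG1, and TADA3 had 478% of its count. XRCC1, the scaffold of single-strand repair, had means of 582 ± 168 with vehicle, 679 ± 112 with VPA and 602 ± 79.3 with VPA + Rapamycin (SD, n = 3) and no call.

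Mismatch repair (MSH6 and PMS2) and nucleotide excision repair (ERCC2, ERCC3 and ERCC4) held no call in edgeR with all libraries of 2 conditions. ERCC3 was lower with VPA in the fit of all 9 libraries (adjusted p = 0.0406). Without vehicle replicate 3, ERCC3 was lower with VPA (adjusted p = 0.0163) and for VPA + Rapamycin against vehicle (adjusted p = 0.0278). At an unadjusted p under 0.05, 1 of these 5 passed for VPA, ERCC3, which was lower (log2 fold change -0.28 ± 0.11 (SE), adjusted p = 0.0811), and PMS2 and ERCC3 passed for VPA + Rapamycin against vehicle (log2 fold change -0.28 ± 0.12 (SE), adjusted p = 0.143 and log2 fold change -0.27 ± 0.11 (SE), adjusted p = 0.105). Such a p was common over all genes. PMS2 with an unadjusted p = 0.0505 in edgeR ranked 7513 of 17360 genes for VPA. MSH6, which recognises mispaired bases, had 2926, 2778 and 2628 scaled counts with vehicle, 3226, 3279 and 3038 with VPA and 3372, 2991 and 2995 with VPA + Rapamycin. PMS2, the nuclease subunit, had 421, 424 and 412 scaled counts with vehicle, 318, 351 and 373 with VPA and 343, 355 and 346 with VPA + Rapamycin. All treated libraries of PMS2 lay below vehicle. ERCC2, a helicase of the repair and transcription complex TFIIH, had 1558, 1456 and 1193 scaled counts with vehicle, 1363, 1493 and 1485 with VPA and 1477, 1683 and 1461 with VPA + Rapamycin. ERCC4, a nuclease that cuts beside the lesion, had 200.3, 275 and 290.3 scaled counts with vehicle, 306, 275 and 312 with VPA and 316, 226 and 317 with VPA + Rapamycin. Vehicle and VPA overlapped in both ERCC genes. Of the proteins that mark chromatin at breaks, RNF168, a ubiquitin ligase for histone H2A, had 729, 753 and 907 scaled counts with vehicle, 859, 807 and 777 with VPA and 656, 621 and 681 with VPA + Rapamycin. VPA overlapped vehicle, and the level fell by 19.7% with Rapamycin added, without overlap (log2 fold change -0.32 ± 0.089 (SE), adjusted p = 0.0395). This call was lost whenever any 1 of the 6 libraries was left out. MDC1, the highest of this group per length, had 1628, 1623 and 1070.4 scaled counts with vehicle, 1645, 1711 and 1729 with VPA and 1881, 1521 and 1618 with VPA + Rapamycin. RNF8, the lowest, had 564, 549 and 470.3 scaled counts with vehicle, 521, 564 and 519 with VPA and 525, 456 and 481 with VPA + Rapamycin, and TP53BP1 had means of 2157 ± 149 with vehicle, 2245 ± 61.1 with VPA and 2314 ± 239 with VPA + Rapamycin (SD, n = 3). None of these last 3 passed a test.

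Over all 44 genes, most estimates lay above 0 for VPA and below 0 for added Rapamycin. With VPA, 33 of 44 log2 fold changes were above 0, against 49.7% of all genes tested, and 11 below, against 50.3%, with a median of 0.18 against -0.0030 for all genes. Without vehicle replicate 3 this median was 0.0997, against 0.00619 for all genes. In 18 genes the VPA libraries lay above all vehicle libraries and in 5 below, where 24.9% and 22.6% of all genes did. The number of genes higher was 12 in each of the fits that changed the test, the scaling or the filter, but fell to 7 without vehicle replicate 2 and to 5, 3 and 5 without VPA replicates 1, 2 and 3. Calls over all genes fell in these fits too. Of all genes, 11% were higher without vehicle replicate 2 and 10.6%, 9.97% and 10.3% without VPA replicates 1, 2 and 3, against 16.4% with all libraries. The 2 lower genes became 1 without VPA replicate 3, where 9.49% of all genes were lower, against 15.7%. RBBP8, FANCC, PARP1 and RAD52 passed in all 13 alternative fits.

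When Rapamycin was added to VPA, 31 of 44 estimates were below 0 (49.3% of all genes) and 13 above (50.7%), with a median of -0.087. In 12 genes the VPA + Rapamycin libraries lay below all VPA libraries, where 13.2% of all genes did, and in 0 above (12.3%). In edgeR 0 of the 44 rose, where 3.01% of all genes did, and 0 rose in DESeq2. RAD52 was higher at an unadjusted p under 0.05, and passed with no filter on low counts and without VPA + Rapamycin replicate 1. The 6 calls were lost when all 9 libraries were fitted together (adjusted p = 0.201 to 0.316), a fit in which all groups share 1 estimate of the spread. Over all genes 0.383% were lower in that fit, against 3.73% in the pairwise fit. The 6 calls became 1, 0 and 2 without VPA replicates 1, 2 and 3, where 1.99%, 1.66% and 2.41% of all genes were lower. They became 1 and 2 without VPA + Rapamycin replicates 2 and 3 (3.4% and 1.94% of all genes), and 4 of the 6 remained without VPA + Rapamycin replicate 1.

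Against vehicle, VPA + Rapamycin left 2 of the 44 genes lower, NBN and RAD52, where 9.22% of all 17383 genes were, and 0 higher, where 9.81% were (19% in either direction). At an unadjusted p under 0.05, 4 were higher and 8 lower, and DESeq2 called 1 higher, XRCC4. Such a p was common over all genes here too, since PMS2 with an unadjusted p = 0.0473 in edgeR ranked 5764 of 17383 genes. The libraries did not overlap in 7 higher and 6 lower genes, against 20.3% and 18.2% of all genes. The estimates had a median of 0.097, with 26 of 44 above 0 against 49.9% of all genes and 18 below against 50.1%. This median was 0.0213 without vehicle replicate 3, against 0.00752 for all genes. Without vehicle replicate 3 the calls were 3 higher and 4 lower (11.6% and 11.1% of all genes), and without vehicle replicate 1 they were 1 and 3 (12.3% and 11.8%). The 2 lower genes became 1, RAD52, without vehicle replicate 2 or any single VPA + Rapamycin library. In these fits 2.97% to 4.28% of all genes were lower.

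**Figure D3:**
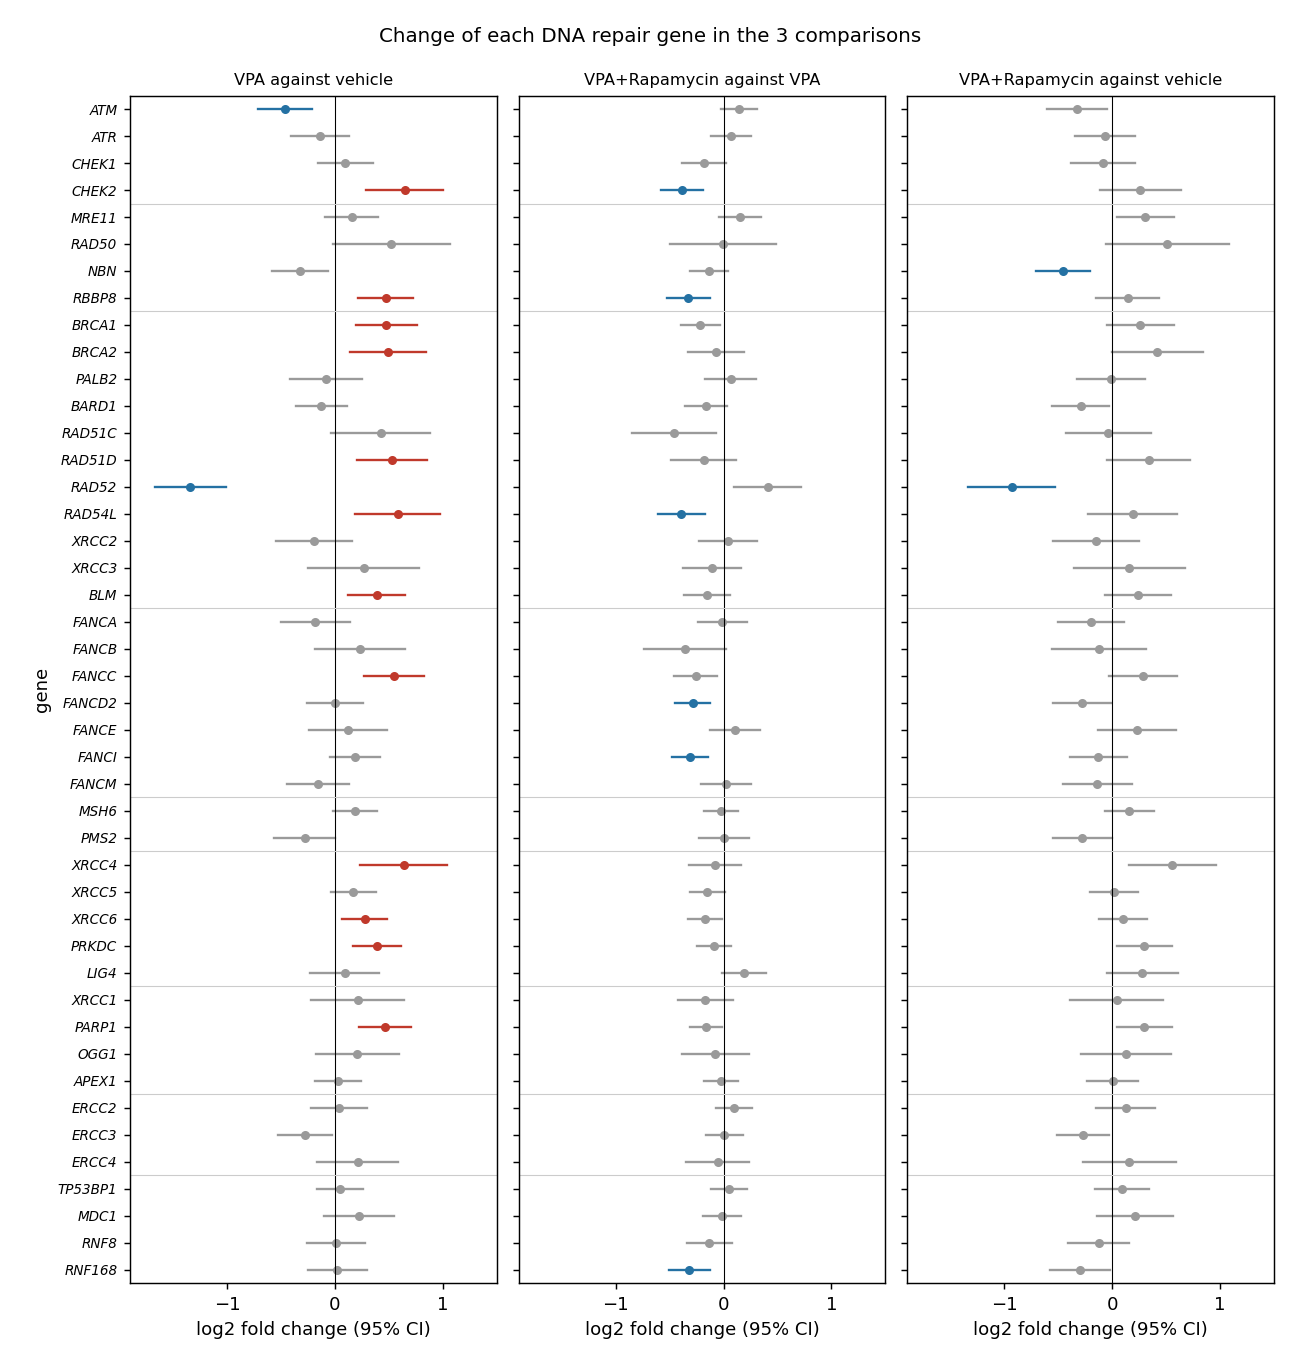
Log2 fold change (horizontal axis) of each of the 44 genes with its 95% confidence interval in the 3 comparisons, grouped by role. Red marks genes higher and blue genes lower at an adjusted p of at most 0.05, grey the rest; most points lie right of 0 for VPA against vehicle (33 of 44) and left of 0 for VPA + Rapamycin against VPA (31 of 44).

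The log2 ratio of the read counts of 2 partners within a library does not depend on the scaling of that library, and the ratios of 8 pairs, chosen after the values had been seen, are given as a description. BRCA1 against BARD1, its obligate partner, had a log2 ratio of 0.0326, 0.292 and -0.284 with vehicle, 0.58, 0.677 and 0.622 with VPA and 0.586, 0.537 and 0.602 with VPA + Rapamycin. The 3 vehicle ratios spread over a wide range and all lay below the treated ones, with a difference of 0.61 for VPA against vehicle. MRE11 against NBN had -0.748, -0.999 and -0.83 with vehicle, -0.443, -0.484 and -0.214 with VPA and 0.0442, -0.284 and -0.0653 with VPA + Rapamycin. Here too vehicle was lowest, with differences of 0.48 for VPA and 0.76 for VPA + Rapamycin. The ratio of XRCC4 to LIG4 was 0.56 higher with VPA than with vehicle, that of CHEK2 to CHEK1 0.575 and that of BRCA2 to PALB2 0.59, all without overlap. ATM against ATR was lower, 1.6, 1.59 and 1.64 with vehicle, 1.23, 1.39 and 1.24 with VPA and 1.28, 1.33 and 1.45 with VPA + Rapamycin, and FANCD2 against FANCI was lower by a smaller step (-0.18). XRCC5 against XRCC6 overlapped between all conditions. The exact two-sided permutation test of 3 against 3 libraries cannot go below p = 0.1, an adjusted p = 0.171 over the 24 tests, so that no pair could pass it.

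**Figure D4:**
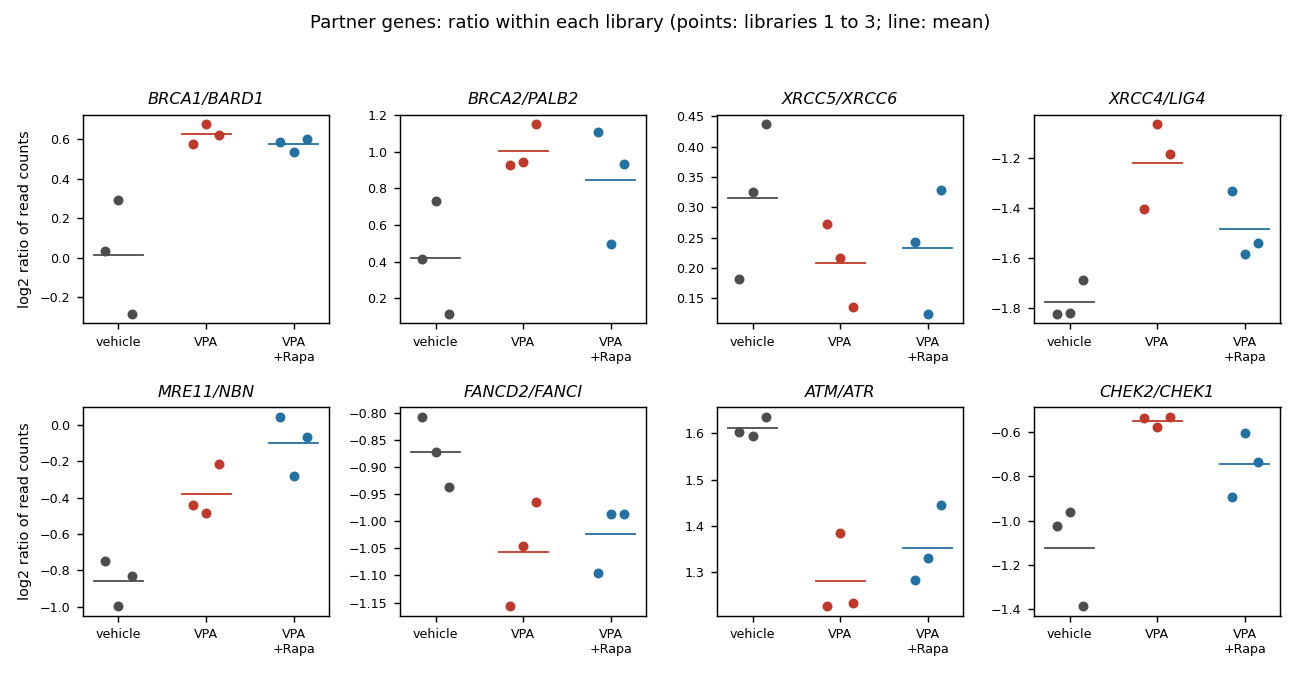
Log2 ratio of the read counts of 2 partner genes within each library (vertical axis, a separate range per panel), 1 point per library and a line at the mean of each condition. In MRE11/NBN the 3 vehicle points lie below the 6 treated ones, and in XRCC5/XRCC6 the conditions overlap.

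Genes around the 44 gave the following counts. Beside them, 16.4% of all genes tested were higher and 15.7% lower with VPA. With Rapamycin added 3.01% were higher and 3.73% lower, and for VPA + Rapamycin against vehicle 9.81% and 9.22%. Of 90 other repair genes tested, 16 were higher and 9 lower with VPA (median log2 fold change 0.033), 4 were lower with Rapamycin added and 2 were higher and 7 lower for VPA + Rapamycin against vehicle. Of 38 DNA replication genes, 20 were higher with VPA (median 0.45) and 9 lower with Rapamycin added (median -0.26), and 3 were higher for VPA + Rapamycin against vehicle. Of 28 mitosis genes, 3 were higher with VPA (median 0.0015) and 13 lower with Rapamycin added (median -0.24), and 6 were lower for VPA + Rapamycin against vehicle. Replication genes summed to 37653 to 49145 in vehicle, 56824 to 60288 in VPA and 46607 to 54670 in VPA + Rapamycin, beside sums of the 44 genes of 59385 to 67315, 71733 to 74636 and 64558 to 71478. Replication and mitosis genes together gave 23 calls with VPA, 15 and 13 without VPA replicates 1 and 2. They gave 22 calls for added Rapamycin, 8 without VPA replicate 2, 10 without VPA + Rapamycin replicate 3 and 2 in the fit of all 9 libraries. Calls over all genes fell in these fits too. Of 22 p53 target genes, 10 were lower and 1 higher with VPA, 5 were lower with Rapamycin added and 11 were lower with VPA + Rapamycin against vehicle.

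Markers of other cells moved as well, and the shares of all genes called are those given above. Neuron markers summed to 30011 to 53841 in vehicle, 27774 to 30198 in VPA and 29628 to 33044 in VPA + Rapamycin, with 6 of 11 lower with VPA, and none of the 11 was at 0 in any library. Mesenchyme markers summed to 2501 to 5232, 9552 to 12163 and 4246 to 6329, with 2 of 9 tested higher with VPA and 6 lower with Rapamycin added. The 2 were the collagens COL1A1 (log2 fold change 1.11 ± 0.28 (SE), adjusted p = 0.0124) and COL1A2 (log2 fold change 2.12 ± 0.34 (SE), adjusted p = 0.001), which made up most of the sums, and over the 9 the estimates with VPA were 5 above and 4 below 0 with a median of 0.020. DCN, PRRX1 and TWIST1 were at 0 in at least 1 library. Neural crest markers summed to 9098 to 9590, 8304 to 9291 and 9144 to 9671, with 4 of 8 tested lower and 1 higher with VPA, and TFAP2B was at 0 in at least 1 library. Of 8 neural progenitor markers, HES5 was higher (log2 fold change 0.95 ± 0.105 (SE), adjusted p = 0.000114) and VIM lower (-0.40 ± 0.0945, adjusted p = 0.00786) with VPA. HES5 (-0.61 ± 0.0884, adjusted p = 0.000444) and FABP7 (-0.55 ± 0.0768, adjusted p = 0.000292) were lower with Rapamycin added. The rest, with SOX2, PAX6 and NES, were not called in these comparisons. The part of the cell mixture and of cycling cells in the changes of the repair genes was not tested.

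**Figure D5:**
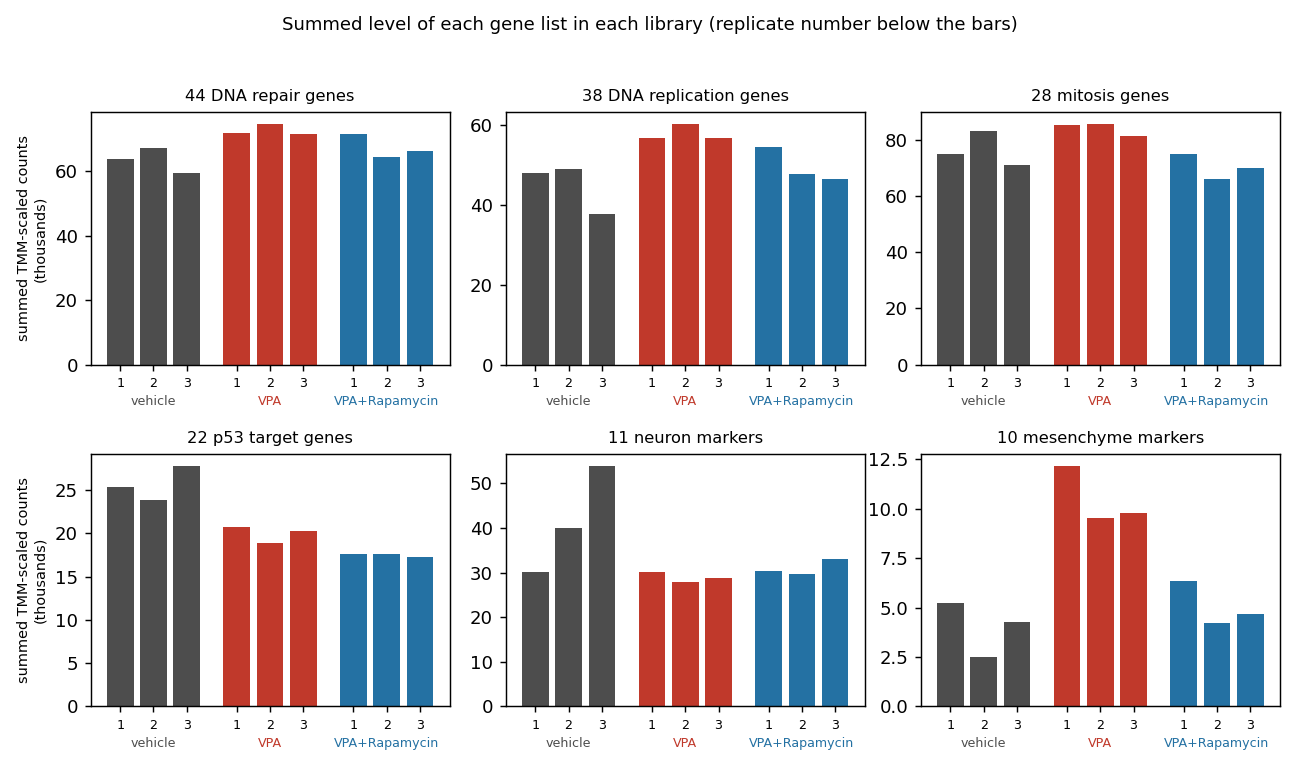
Summed TMM-scaled counts (vertical axis, from 0, its unit given on the label) of 6 gene lists, with 1 bar per library. The repair and replication sums are highest in the 3 VPA libraries, the p53 targets are highest in vehicle, and vehicle replicate 3 has the lowest replication and the highest neuron sum.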

How the data were processed

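Poly-A RNA of whole SCOs was sequenced by the authors in 9 libraries. Per the labels, mRNA was taken on poly-T beads and primed with random hexamers with a kit that does not mark strand, and the submitters' processing notes name HISAT2 2.0.5 and featureCounts 1.5.0-p3. The authors deposited raw read counts per gene and FPKM values in 3 tables, 1 for each pair of conditions. Their 18 per-sample columns of scaled values, and their group means, fold changes and p-values, were not used. Levels between genes were compared in FPKM.

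Counts of each pair were tested with edgeR 4.0.16 (R 4.3.3): filterByExpr, TMM factors and the quasi-likelihood test without a block, with Benjamini-Hochberg adjustment over all genes and a threshold of 0.05. All 44 genes passed the filter in each comparison. Scripts were tested on simulated data. Alternatives were DESeq2 1.42.0, other scalings and filters, all 9 libraries in 1 fit, a replicate block and leaving out each library. Libraries of different conditions share codes, which may mark the clones that the study describes but are not tied to them. Same-numbered libraries deviated together by a correlation over 0.1 in 1 of 9 pairs, and the block was kept as an alternative. For VPA + Rapamycin against vehicle the 3 correlations were 0.095, 0.0627 and 0.159, and 5 libraries matched their own number best. In VPA against vehicle and for added Rapamycin, 2 and 3 libraries did. Libraries held 15290294 to 17417338 counts, and limits from 3 counts cover counting error only. Exon overlaps came from GENCODE 29 and promoters from RefSeq (GRCh38.p14). The genes, lists and tests were chosen with earlier results of these data known. Values in every library are given for genes called in any comparison and for the highest and lowest gene of each role.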

Additional observations from a re-analysis of the deposited data

How the results depend on the processing

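None of the 44 genes changed direction in any alternative fit of a called result. With all 9 libraries in 1 fit, 4 genes were lower with VPA (NBN and ERCC3 added), 0 were lower for added Rapamycin, and 3 were higher for VPA + Rapamycin against vehicle. Of all genes, 17.5%, 0.383% and 13% were called in these directions. DESeq2, upper-quartile factors, no filter and the replicate block each gave 1 gene higher for VPA + Rapamycin against vehicle (6.52% to 12.1% of all genes). No filter gave 1 higher for added Rapamycin (2.28% of all genes). Replication and mitosis genes gave 2 calls for added Rapamycin and 17 for VPA + Rapamycin against vehicle with all 9 libraries in 1 fit. Leaving out 1 library at a time gave 3 to 12 genes higher and 1 to 3 lower with VPA, beside 9.97% to 19.5% and 8.9% to 18.1% of all genes. For added Rapamycin it gave 0 to 1 higher and 0 to 6 lower (0.978% to 2.99% and 1.66% to 3.76% of all genes). For VPA + Rapamycin against vehicle it gave 0 to 3 higher and 1 to 4 lower (4.24% to 12.3% and 2.97% to 11.8%). Replication and mitosis calls then ranged over 13 to 29, 8 to 28 and 1 to 17. The cause of these changes was not tested. Deviations of same-numbered libraries had mean correlations of 0.0104, 0.0267 and 0.105, and whether the numbers mark clones was not settled. With the replicate block, 10 genes were higher and 2 lower with VPA (15% and 13.6% of all genes). It gave 0 and 4 for added Rapamycin (3.11% and 4.07%), and 1 and 2 for VPA + Rapamycin against vehicle (12.1% and 11.1%). BLM and XRCC6 (VPA), and FANCD2 and RNF168 (added Rapamycin), then missed the threshold, with adjusted p of 0.0616, 0.0877, 0.0612 and 0.0559, and XRCC4 passed against vehicle (0.0268). The replicate block gave 24, 21 and 13 calls of replication and mitosis genes.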
